A study of Mus musculus with 304 samples.

Results

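The cells described here are 59 dentate granule cells of the mouse hippocampus that carried a green fluorescent protein (GFP) vector and served as virus controls in a study of Id2, a gene for an inhibitor of DNA binding. They are all the cells of the group GFP_Control that the labels mark as having passed quality control and that have a column in the table of read counts, 59 of the 291 cells with such a column. The labels list 70 GFP samples, of which 61 passed, and 2 of those 61 were not analysed here because they had no matching column. An adeno-associated virus (AAV) was injected to bring in GFP, and the cells were taken 1 month later, when the cytosol of each cell was drawn into a patch pipette and made into its own total RNA library. The virus serotype and promoter, and the strain, sex and age of the mice, were not given in the sources used here. No label names the animal of a cell, so the 59 cells were treated as 1 sample, no test was made, and the spread given below is the spread between cells. Titles fall into a first run, IDS1 to IDS95, which holds 43 of the cells, and a second run, IDS101 to IDS120, which holds 16.

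Granule cells are the principal neurons of the dentate gyrus, which receives the entorhinal input to the hippocampus. They release glutamate, and their axons, the mossy fibres, carry zinc-filled vesicles to mossy cells, interneurons and CA3 pyramidal cells. The homeobox factor Prox1 marks the lineage and is needed to keep its identity, and the calcium buffer Calb1 marks the mature cells. Granule cells are known for sparse firing, a very negative resting potential, strong inhibition through extrasynaptic GABA-A receptors, and a large induction of immediate early genes when they fire.

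Depth ran from 312004 to 7596250 reads per cell, and a cell had reads from 2083 to 6163 genes with a median of 4105. When each cell was thinned to 100000 reads, the median number of genes was 3120. A gene was taken as measured when it had a read in at least 20% of the cells and at least 5 CPM, its reads scaled to a library of 1000000, in the summed cells, and 7356 of the 22800 genes in the table, or 32.3%, met that. Only 2688 genes, 11.8%, had a read in at least 50% of the cells, and this number was 1671 in the thinned cells and 1543 where a cell had to reach 10 CPM. No read in any cell was found for 5505 of the 22800 genes. These shares over all genes are the ones to set beside the counts of list members below. Low values weigh in these shares, since 22.9% of all values above 0 were under 5 CPM, so the number of cells with a read after thinning is also given where it differs most or where genes are counted together. A library stood apart: in GFP replicate 57, 14.1% of the reads came from genes of the mitochondrial genome against a median of 0.295% over the cells, and it held no read of Prox1, Calb1 or C1ql2.

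The granule cell identity of the group was carried by Calb1, Pcp4, C1ql3, Rfx3, Synpr and C1ql2, each read in 48 or more of the 59 cells, while Dsp was all but absent. Of 22 granule cell markers, 21, or 95.5%, were measured, and 14, or 63.6%, had a read in at least 50% of cells. The summed level of these 22 genes was between 1040 and 10686 CPM, and it was above 1000 CPM in every cell. Calb1, the calcium-binding protein calbindin, was read in 55 cells, with a lowest value of 0, a median of 899 CPM and a highest value of 3281 CPM. Prox1 was read in 44 cells, 74.6% of them with a 95% Clopper-Pearson interval of 61.56% to 85.02%, and its values ran from 0 through a median of 183 CPM to 1159 CPM. The lower quartile of Prox1 was 0.0889 CPM and its upper quartile 561 CPM, so its cells ranged from none to a high level, and in the summed reads of all cells it stood at 295.8 CPM with an exact Poisson interval of 293.5 to 298.05 CPM. Such intervals cover counting error only, and the labels name no molecular identifiers. C1ql2 and C1ql3, secreted proteins of the C1q family that gather kainate receptors at mossy fibre synapses, were read in 48 and 58 cells. C1ql2 had a median of 554 CPM and a highest value of 3980 CPM, and C1ql3 a median of 96.3 CPM and a highest value of 1483 CPM.

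Tdo2, the tryptophan dioxygenase used as a marker of mature granule cells, was read in 25 cells, with a median of 0 and a highest value of 1734 CPM. Dsp, the desmosomal protein desmoplakin, was read in only 7 cells, 11.9% with an interval of 4.91% to 22.9%, and 1 of these held 888 CPM. Counting the 6 markers Prox1, Calb1, C1ql2, C1ql3, Dsp and Tdo2 together, 54 cells had a read of at least 3, 24 cells of exactly 4, and 3 cells of all 6. Further markers were as widespread: Pcp4, a calmodulin-binding peptide, was read in 56 cells with a median of 417 CPM, Synpr, the vesicle protein synaptoporin of mossy fibre terminals, in 52 cells with a median of 683 CPM, and the ciliary transcription factor Rfx3 in 52 cells with a median of 426 CPM. Their levels were hardly related to each other over the cells. Among the 14 granule cell markers read in at least 50% of cells, the 91 pairs had a median Spearman rho of 0.027 over 59 cells, close to the 0.0465 of all pairs among 2688 genes.

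**Figure D1:**
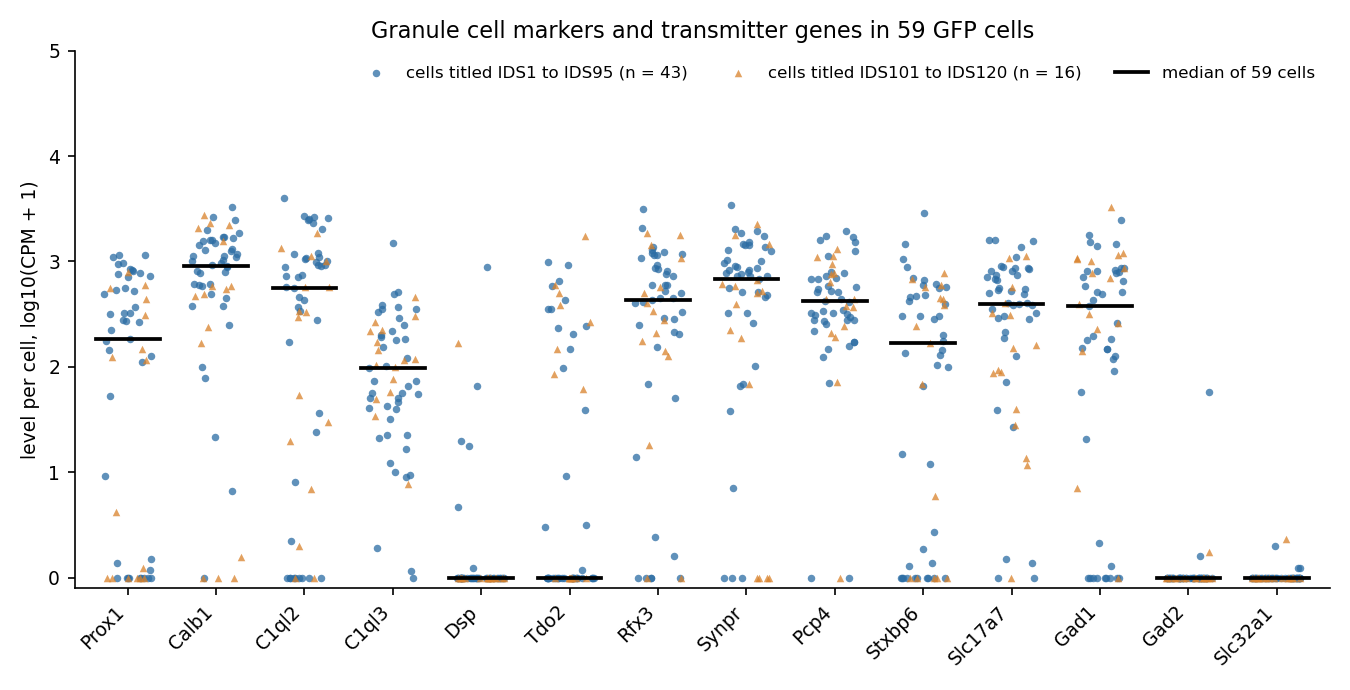
Level of granule cell markers and transmitter genes in each of 59 GFP cells, as log10 of CPM plus 1 on the vertical axis. Each point is a cell, coloured by its run of titles, and the black bar is the median over all cells. Calb1, Pcp4 and Synpr form a single cloud with few cells at 0, Prox1 and Stxbp6 range from cells near 0 to cells far above their medians of 183 and 169 CPM, and Dsp, Gad2 and Slc32a1 lie at 0 in nearly every cell.

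Genes of glia, vessels and the interferon response were low in most cells but not in all, and lists for other neurons were higher. The 18 microglial genes had a summed level with a median of 8.80 CPM and a range of 0 to 8177 CPM, and 2 cells, GFP replicates 20 and 57, were above 1000 CPM. The defining microglial genes P2ry12 and Cx3cr1 had at most 0.805 CPM in any cell, whereas C1qc reached 2603 CPM in 1 cell. For 13 astrocyte genes the median over cells was 212 CPM with a range of 0 to 6775 CPM, and for 13 oligodendrocyte genes it was 18.8 CPM with a range of 0 to 5949 CPM. Both highest values were those of replicate 57. Olig2, Sox10 and Opalin had no read in any cell, and the astrocyte connexin Gja1 did not exceed 4.18 CPM, whereas the glutamate transporters Slc1a2 and Slc1a3 and the myelin gene Mbp were read in 28, 22 and 33 cells. The 12 endothelial and mural genes had a median of 0.394 CPM and a highest value of 871 CPM. For the 17 interferon-stimulated genes the median was 7.56 CPM, the upper quartile 223 CPM and the highest value 1135 CPM, with 2 cells at 1000 CPM or more. Of these genes B2m, H2-D1 and Stat2 were highest per kilobase of exon, while Ifitm3, Bst2, Ifit2 and Oasl2 had no read in any of the 59 cells. Lists for other hippocampal neurons had higher sums: a median of 851 CPM for 14 genes of CA1 to CA3 pyramidal cells, 548 CPM for 13 of mossy cells and 521 CPM for 16 of interneurons, with 24, 12 and 14 cells at 1000 CPM or more. Most of these sums came from few members, Nptx1, Crym and Nr3c2 in the pyramidal list, read in 51, 38 and 52 cells, Gria3 and Ap2s1 in the mossy cell list, read in 46 and 43, and Gad1 in the interneuron list. Of these, Nptx1, Nr3c2 and Gria3 also stand on other lists used here. What part the RNA of other cells has in the values of granule cell genes was not tested. Without replicates 20 and 57 the median summed level of the granule cell markers was 6258 CPM, against 6231 CPM with them. A median over 59 cells can hardly move when 2 are left out, so these values do not answer that question.

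**Figure D2:**
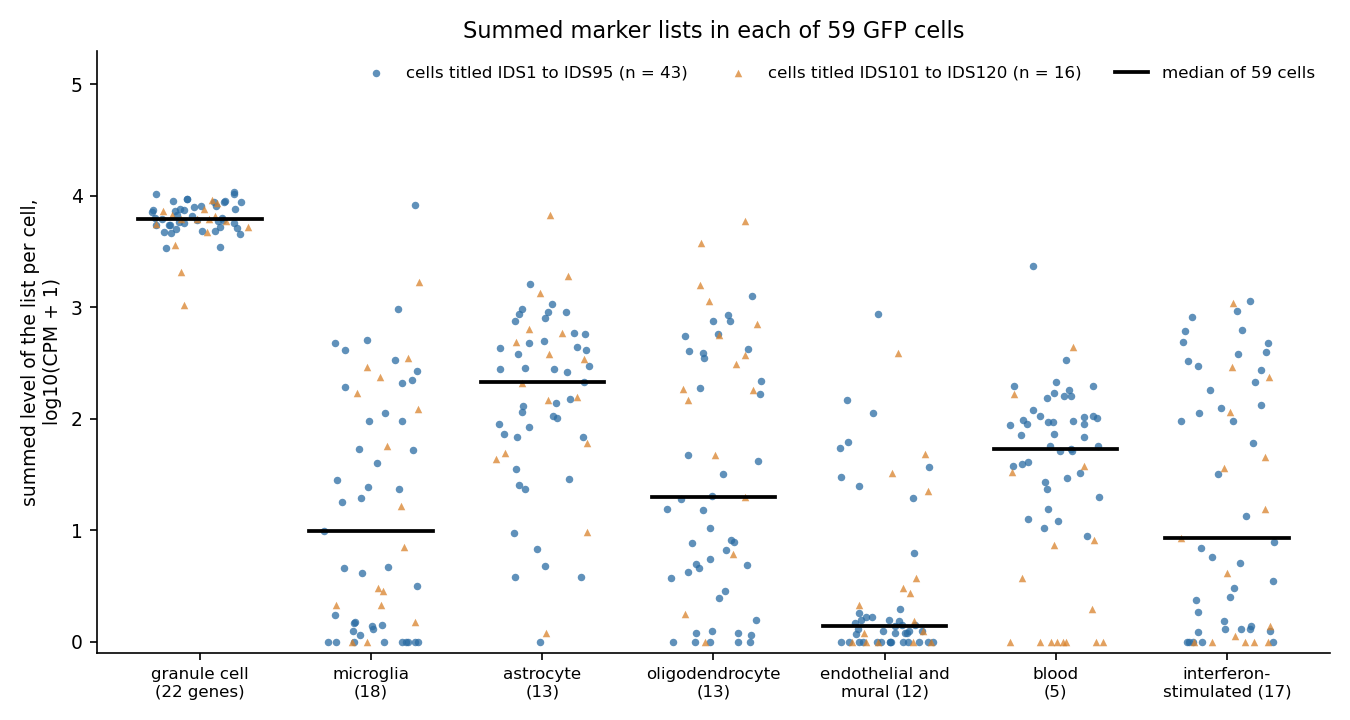
Summed level of marker lists in each of 59 GFP cells, as log10 of CPM plus 1 on the vertical axis, with the number of genes in each list below. Points are cells coloured by their run of titles, and bars are medians. The granule cell list lies between 1040 and 10686 CPM, and the other lists shown, which leave out those for other neurons, spread from 0 upwards with medians of 212 CPM or less.

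The transcription factors of the cells were led, in share of cells, by Tcf4 and Zbtb20, both read in all 59. Of 42 listed factors, 34 were measured and 21 were read in at least 50% of cells. Tcf4, an E-protein and partner of proneural factors, ran from 7.74 CPM through a median of 668 CPM to 2354 CPM. Zbtb20, a zinc finger factor of hippocampal identity, had a median of 522 CPM and ran from 0.403 to 3525 CPM. Nfib and Mef2c, factors of neuronal maturation, were read in 52 and 51 cells with medians of 361 and 190 CPM. Neurod2 was read in 45 cells and Neurod1, which drives granule cell maturation, in 23, with medians of 25.5 CPM and 0. Neurod6 and Emx1, factors of pyramidal neurons, were read in 5 cells each. Sox11, usually taken as a factor of immature neurons, was read in 47 cells with a median of 98.3 CPM and a highest value of 2207.5 CPM. The list of immature neuron genes, which shares Prox1, Neurod1 and Sox11 with other lists, was mixed. Of its 14 genes in the table, 7 were measured and 5, or 35.7%, were read in at least 50% of cells, and the summed level had a median of 1396 CPM. Stmn1 and Dpysl3, which act on microtubules and growth cones, were read in 39 and 37 cells with medians of 123.2 and 93.5 CPM, and the tubulin gene Tubb3 in 24. Dcx was read in 7 cells, and Eomes and Igfbpl1 in 2 each.

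Id2, the gene the study overexpressed in other cells, was read in 31 of these control cells. Its values ran from 0 through a median of 0.170 CPM to 575 CPM, with an upper quartile of 146.5 CPM. In the summed cells only Rfx3 and Nr3c2 stood above Id2 per kilobase of exon among the 42 listed factors, an order that depends on the length used. After thinning, 23 cells had an Id2 read. Its relatives were scarcer: Id1 had no read in any cell, Id3 was read in 2 cells and Id4 in 3. Among nuclear hormone receptors, Nr3c2, the mineralocorticoid receptor, was read in 52 cells with a median of 231 CPM, and Nr3c1, the glucocorticoid receptor, in 14 with a median of 0. Per kilobase of exon the level was 42.4 for Nr3c2 and 3.96 for Nr3c1, in CPM per kilobase (RPKM) of the summed cells.

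The gene that loads glutamate into vesicles was read in nearly all cells, and 1 gene of GABA synthesis was read in most of the same cells. Slc17a7, the vesicular glutamate transporter 1, was read in 56 cells, with values from 0 through a median of 394 CPM to 1594 CPM, and the other two vesicular glutamate transporters, Slc17a6 and Slc17a8, in 2 and 1. Gad1, which makes GABA from glutamate, was read in 49 cells, with values from 0 through a median of 376 CPM to 3256 CPM. Gad2, the other such enzyme, was read in 3 cells, and Slc32a1, the vesicular GABA transporter, in 4, with highest values of 56.8 and 1.32 CPM. Of the 59 thinned cells, 41 held both Gad1 and Slc17a7, 1 held Gad1 with Gad2, and none held Gad1 with Slc32a1. Gad1 and Slc17a7 were each read in most cells, so many cells with both are to be expected without any link. Gad2 and Slc32a1 were too rare or too low for the other 2 counts to be informative. Of 16 interneuron genes, 3 were measured, among them Gad1 and Lamp5, the latter read in 17 cells with a median of 0. Pvalb, Sst, Vip and Lhx6 were each read in 5 cells or fewer, and Dlx2 and Dlx5 had no read. Gad1 was higher in the second run of titles, where its median was 732 CPM, than in the first, where it was 195 CPM, and the reverse held for Slc17a7, at 121.9 and 505.7 CPM. These runs of titles may differ in animal and in preparation, which cannot be told apart here.

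AMPA receptors, the fast glutamate receptors, were represented mainly by Gria2 and Gria1 transcripts. Gria2, whose edited subunit blocks calcium entry, was read in every cell and ran from 54.5 CPM through a median of 1404 CPM to 3517 CPM, so no cell lay at 0. Gria1 was read in 56 cells with a median of 422 CPM, Gria3 in 46 with 148.9 CPM, and Gria4 in 16 with 0. The levels per kilobase in the summed cells were 101.4 RPKM for Gria2, 93.8 for Gria1, 31.4 for Gria3 and 3.22 for Gria4. In the thinned cells 38 of 59 had reads of 3 of the 4 subunits, and 5 cells had reads of all 4. The auxiliary subunit Cnih2, which slows channel closing, was read in 47 cells with a median of 229 CPM, and Shisa9, an AMPA receptor modulator, in 44 with 68.01 CPM. Cacng2, or stargazin, was read in 19 cells and Cacng8 in 16, with medians of 0. Of the kainate receptor genes, Grik2 was read in 38 cells, Grik5 in 34, Grik4 in 43 but only 17 after thinning, and Grik1 in 1. Their levels per kilobase, 7.33 RPKM for Grik2, 18.6 for Grik5 and 2.81 for Grik4, lay below those of Gria1, Gria2 and Gria3, but Grik2 and Grik5 lay above Gria4.

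NMDA receptors, which open only with glutamate and depolarization, showed 3 widespread genes out of 7. Grin2b was read in 57 cells and ran from 0 through a median of 305 CPM to 1800.5 CPM, Grin2a in 45 with a median of 162 CPM, and the obligatory subunit Grin1 in 49 with a median of 118.7 CPM. Per kilobase, Grin1 was the highest of the 7, ahead of Grin2b and Grin2a at 15.7 and 15.5 RPKM, but with the median transcript length Grin2b was highest. Both Grin2a and Grin2b were held by 38 thinned cells. Grin2c was read in 2 cells, Grin3a in 7 and Grin2d in 8. Among metabotropic receptors, Grm2, a presynaptic receptor used to mark mossy fibres, was read in 33 cells, Grm7 in 33 and Grm5 in 52. Grm2 had a median of 12.9 CPM, an upper quartile of 442 CPM and a highest value of 1375 CPM. Grm4, Grm6 and Grm8 were read in 3, 1 and 2 cells.

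GABA-A receptors, the fast chloride channels of inhibition, were represented by genes that include Gabra2, Gabra4, Gabra5 and the beta gene Gabrb1. Of 16 genes, 9, or 56.25%, were measured, 7, or 43.75%, were read in at least 50% of cells, and Gabra3, Gabra6 and Gabrq had no read in any cell. For a count of 0, as for Gabra3, a limit of 3 counts over the summed reads corresponds to 0.0135 CPM. That limit covers counting error only. A gene can also be missed in whole cells, so it is not a bound on the level in the cells. Gabra2 was read in 46 cells with a median of 51.9 CPM, Gabra4 in 42 with 73.7 CPM and Gabra5 in 35 with 98.3 CPM, and Gabrb1 in 40 with 72.7 CPM. In the summed cells Gabra5 stood at 87.4 RPKM, Gabra4 at 54.7 and Gabra2 at 21.4, with all exon bases as the length. The extrasynaptic delta subunit gene Gabrd, which partners alpha 4 in granule cells, was read in 22 cells with a median of 0 and a highest value of 1075 CPM, and 15 thinned cells held Gabra4 with Gabrd. After thinning, 12 cells had reads of 1 of the 6 alpha genes, 18 of 2, 13 of 3 and 15 of 4, in 16 different combinations. What part missed reads have in these combinations was not tested. Gabbr1 and Gabbr2, which form the slow GABA-B receptor, were read in 51 and 37 cells, and 23 thinned cells held both. Slc12a5, the chloride extruder KCC2, was read in 46 cells with a median of 122.3 CPM, and Slc12a2, the chloride importer NKCC1, in 13 with a median of 0.

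**Figure D3:**
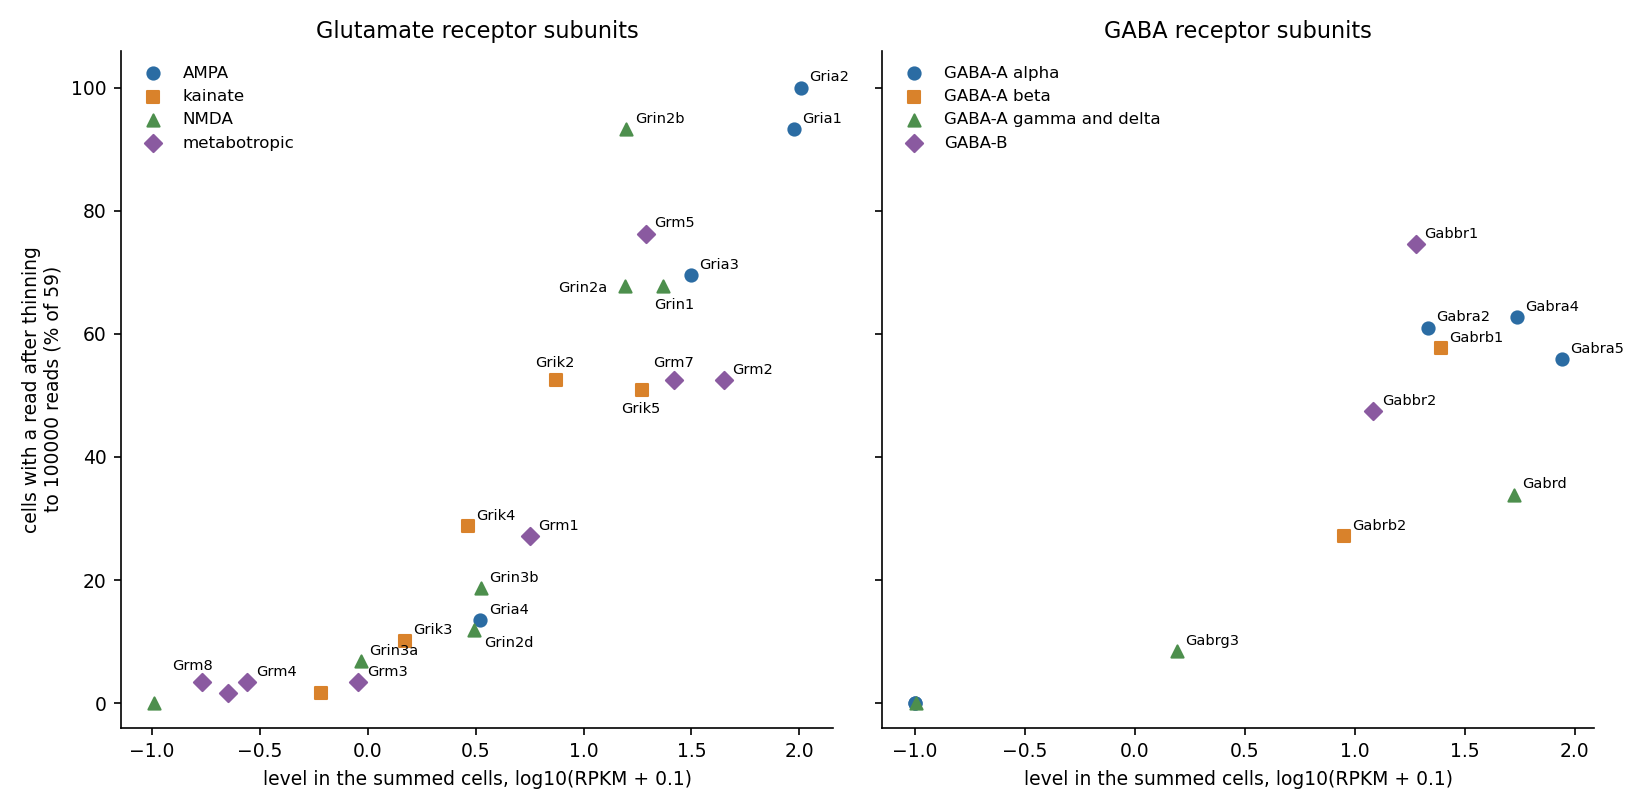
Share of 59 thinned GFP cells with a read of each glutamate receptor gene (left) and of GABA receptor genes (right, not all members shown), against its level per kilobase in the summed cells as log10 of RPKM plus 0.1. Each point is a gene, and colour and shape give its class. Gria2 and Gria1 lie at the upper right, Grin2b lies at a like share of cells but a lower level, while Gabra3 and Gabra6 lie at 0.

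Of 57 potassium channel genes, 31 were measured and 8, or 14.04%, were read in at least 50% of cells, against 11.8% of all genes. Kcnip2, an accessory subunit of A-type channels, was read in 46 cells with a median of 154.1 CPM, and Dpp6, another such subunit, in 41 with 14.4 CPM. Kcna1, Kcna3 and the leak channel Kcnk1 were read in 28, 22 and 22 cells, with medians of 0 and highest values of 928.5, 1024 and 1473 CPM. Counting 32 pore-forming voltage-gated potassium channel genes, a thinned cell held reads of 0 to 12 of them with a median of 6. The 59 cells showed 58 different combinations. What part missed reads of low genes have in this was not tested, so the number of combinations is no measure of differences between cells. Among sodium channel genes, Scn8a was read in 58 cells with a median of 210 CPM and Scn3b in 42 with 132.02 CPM, while Scn1a was read in 25. Cacna1e, the R-type calcium channel, was read in 56 cells and ran from 0 through a median of 369 CPM to 2666 CPM. The pacemaker channel genes Hcn2, Hcn3 and Hcn4 were read in 10, 4 and 3 cells.

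Genes of vesicle release were widespread. Of 53 such genes, 42, or 79.2%, were measured and 28, or 52.8%, were read in at least 50% of cells. Their summed level ran from 7665 to 25130.4 CPM with a median of 15284 CPM. Snap25, a plasma membrane SNARE, was read in every cell, from 581 CPM through a median of 2599.9 CPM to 7778 CPM. Nsf, which takes used SNARE complexes apart, was read in 58 cells with a median of 1515 CPM, Vamp2 in 56 with 683 CPM, and the vesicle GTPase Rab3a in 54 with 576 CPM. Stx1a, a SNARE partner of Snap25, was read in 15 cells. Among synaptotagmins, the calcium sensors of release, Syt11 was read in 55 cells with a median of 594 CPM, Syt7 in 54 with 80.9 CPM, Syt1 in 52 with 347 CPM and Syt5 in 43 with 267 CPM, while Syt2 was read in 3 and Syt9 in none. Unc13a, a priming factor, was read in 53 cells and its relative Unc13c in 7. Zinc loading and buffering genes were present: Slc30a3, the vesicular zinc transporter ZnT3, was read in 52 cells with a median of 283 CPM and a highest value of 1176 CPM, and the metallothioneins Mt1 and Mt3 in 47 and 56 with medians of 212 and 131.8 CPM. Mt2 was read in 14 cells and Slc30a10 in 2.

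Of 29 genes for neuropeptides, granins and their processing, 13, or 44.8%, were measured, against 32.3% of all genes. Of the 29, 11, or 37.9%, were read in at least 50% of cells, against 11.8%, and 5 had no read, against 5505 of all 22800 genes. Scg2, a granin of dense-core vesicles, was read in 55 cells with a median of 1059 CPM and a highest value of 6748 CPM. Cck was read in 50 cells with a median of 251 CPM and Bdnf, the trophic factor stored at mossy fibres, in 47 with 551 CPM. Opioid precursors were restricted to few cells: Pdyn was read in 18 with a highest value of 1038 CPM, and Penk in 10 with a highest value of 5624 CPM. No thinned cell held both Penk and Pdyn. With each gene read in so few cells, few cells with both are to be expected in any case, and whether they exclude each other was not tested. Npy was read in 1 cell, and Crh, Trh, Nts, Tac2 and Cort in none. Of 59 receptors for modulators, 14 were measured, or 23.7% against 32.3% of all genes, 10.2% were read in at least 50% of cells against 11.8%, and 7 had no read, against 5505 of all 22800 genes. The most widespread apart from Nr3c2 were Chrnb2, a nicotinic subunit, in 51 cells, the thyroid hormone receptor Thra in 49 and Ntrk2, the receptor of Bdnf, in 41. Chrm1, Adrb1 and Adora1, receptors for acetylcholine, noradrenaline and adenosine, were read in 31, 26 and 25 cells, whereas Cnr1 was read in 4 and Drd1, Htr2a, Htr2c and Chrm2 in none.

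Genes of calcium signalling included the gene of highest level per kilobase. Calm2, a gene for the calcium sensor calmodulin, was read in every cell, from 1319 CPM through a median of 4358 CPM to 11175 CPM. Calm3, which codes for the same protein, was read in 57 cells with a median of 153.3 CPM, and in the summed cells Calm2 and Calm3 stood at 3202 and 84.5 RPKM. Ppp3ca, the catalytic subunit of calcineurin, ran from 33.3 CPM through a median of 2499.7 CPM to 5444 CPM over the 59 cells, and Nrgn, the calmodulin-binding neurogranin, from 39.05 through 349.7 to 915 CPM. Camk2b was read in 58 cells with a median of 901 CPM and Camk2a in 56 with 172.5 CPM, and per kilobase they stood at 126.2 and 37.5 RPKM. Of other buffers, Calb2 was read in 7 cells with at most 11.2 CPM and Pvalb in 1. At the postsynaptic scaffold, Dlgap1 was read in 58 cells with a median of 727.5 CPM and Shank1 in 55 with 44.8 CPM, but Dlg4, the gene of PSD-95, had a median of 0.640 CPM and a read in 16 thinned cells.

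Among 57 genes of synaptic adhesion in the table, 39, or 68.4%, were measured and 24, or 42.1%, were read in at least 50% of cells. Besides C1ql2 and C1ql3, Ptprs was read in 57 cells with a median of 197 CPM, Ncam1 in 55 with 186 CPM and Cadm1 in 53 with 413 CPM. Cdh9, a cadherin of mossy fibre synapses, was read in 44 cells, 37 of 43 in the first run of titles and 7 of 16 in the second, with medians of 197 CPM and 0. Lrrtm4, a ligand of neurexins and heparan sulfate proteins in granule cell dendrites, was read in 39 cells, and the cerebellins Cbln1, Cbln2 and Cbln4 in 1, 0 and 0. Of 47 axon guidance genes, 26, or 55.3%, were measured and 12, or 25.5%, were read in at least 50% of cells. They included the ephrin receptors Epha7 in 47 cells with a median of 286 CPM and Epha4 in 48 with 123.6 CPM, and the semaphorin receptor Plxna4, which acts in mossy fibre layering, in 51 with 209.6 CPM. The repellents Slit1 and Slit3 were read in 42 and 50 cells, their receptors Robo1 and Robo2 in 7 and 23, the netrin receptors Unc5a and Dcc in 45 and 6, and Sema3d in none. In the cytoskeleton, Map1b and Actb were read in all cells with medians of 816 and 508 CPM, and the neurofilament genes Nefl and Nefm in 55 each with medians of 929.6 and 624 CPM. Nefh, the third neurofilament gene, was read in 9 cells, and Gap43, a growth cone gene, in 5.

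The other main feature of the group was the level of activity-regulated genes, which made up a median of 25078 CPM per cell, with a lowest value of 379 CPM and a highest of 57658 CPM. All of the 30 genes on the list had a read in some cell, 27, or 90%, were measured and 22, or 73.3%, were read in at least 50% of cells. Fos, an AP-1 transcription factor, was read in 56 cells, from 0 through a median of 2666 CPM to 10938 CPM. Plk2, a kinase that scales synapses, had a median of 2268 CPM, Egr1 of 2371 CPM, Egr4 of 1982 CPM and Junb of 1666.5 CPM, each read in 55 to 58 cells. Arc, which remodels AMPA receptor traffic, was read in 48 cells and was more uneven, with quartiles of 90.5 and 1768 CPM and a highest value of 5656 CPM. Npas4, a factor induced by calcium entry, was read in 36 cells with a median of 23.2 CPM, and Ier2 in only 6. Fos stood at rank 5, Egr4 at rank 8 and Junb at rank 12 among all named protein-coding genes by RPKM, at 1495, 1117 and 887 RPKM.

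A count of 3 cells stood apart, with under 2000 CPM of these genes together, and they were picked after the values were seen. GFP replicates 22, 25 and 4 held 379, 490.4 and 1301 CPM, and each had a Fos value of 0. The same cells held 10298, 9288 and 8012 CPM of the granule cell markers, above the median of 6231 CPM, and between 3113 and 4750 genes with a read. Replicate 57, the library rich in mitochondrial reads, was next with 2503 CPM. Over the 59 cells the genes of the list varied partly together: their 231 pairs, among the 22 genes read in at least 50% of cells, had a median Spearman rho of 0.181 and a range of -0.235 to 0.535. For all pairs among 2688 genes the median was 0.0465 and the middle 95% lay between -0.226 and 0.314. The 2688 genes were not matched to the list in level, and the 3 cells named above were not left out. The highest values were 0.535 for Fosb with Junb and 0.504 for Fos with Arc, and the points share a group and differ in depth, so these values are descriptions. The state of the slice or animal when the cells were drawn was not given in the sources used here.

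**Figure D4:**
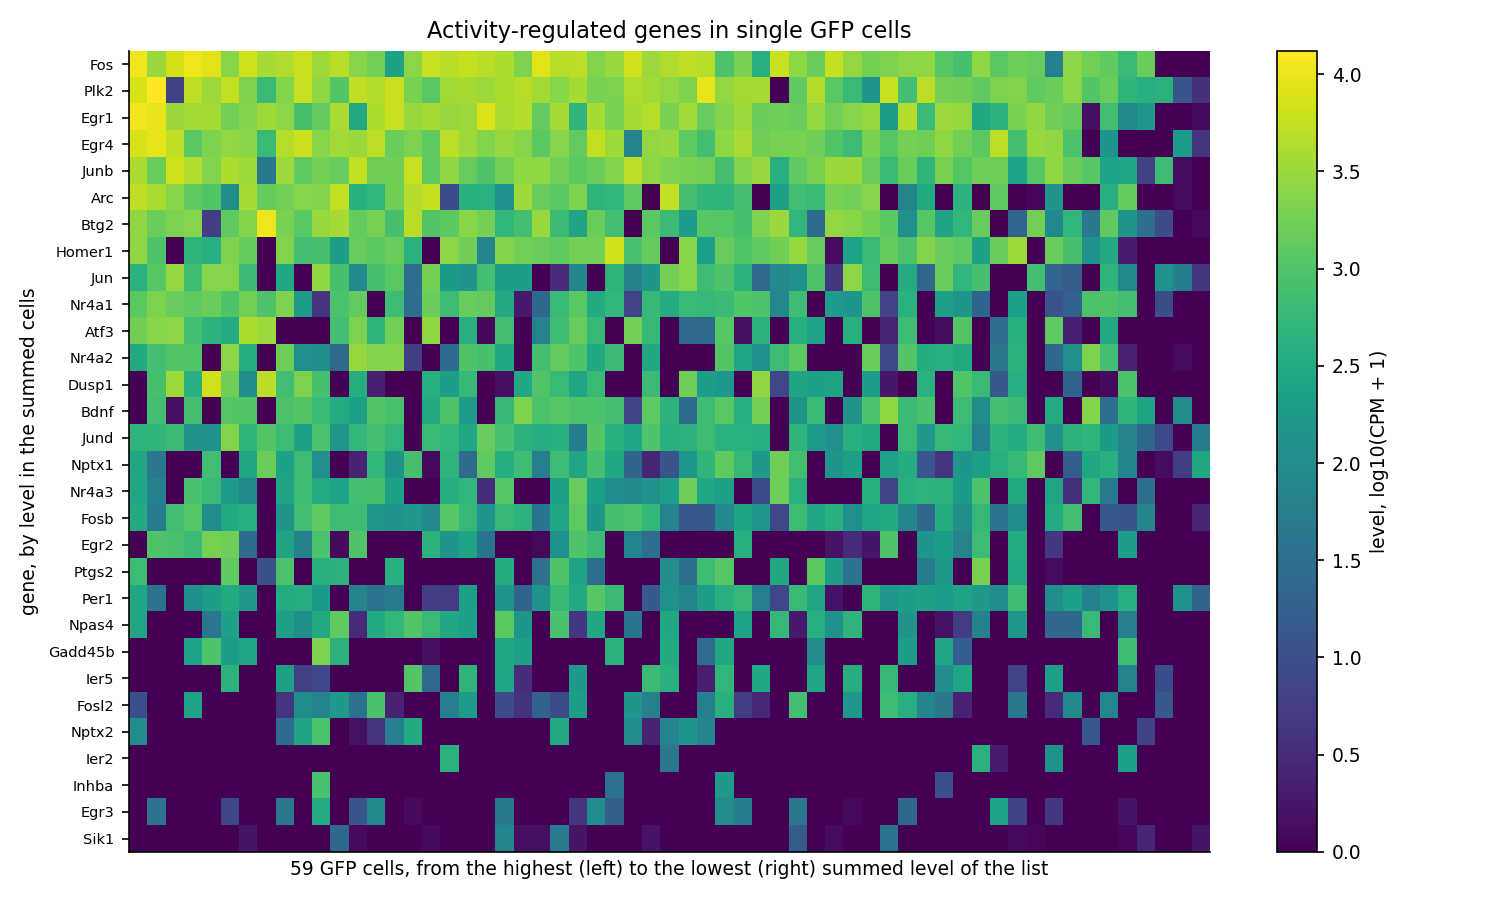
Level of the 30 activity-regulated genes (rows, ordered by level in the summed cells) in 59 GFP cells (columns, ordered by the summed level of the list), as log10 of CPM plus 1 on the colour scale. Fos, Plk2, Egr1, Egr4 and Junb are high in nearly every column, Arc is at 0 in a number of cells scattered along the order, and the 3 columns at the right hold between 379 and 1301 CPM in all.

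Promoters of these genes are shown because the binding site of CREB, a factor activated by calcium and cyclic AMP, is a known element of the immediate early response. Promoter sequences from RefSeq (build GRCm38.p6) were matched by symbol for 23 of the 30 genes, and the 250 bases before each annotated start were searched on both strands for TGACGTCA, the palindromic cyclic AMP response element, and for TGACGT, its shorter form, which any TGACGTCA also contains. The longer motif was in 1.55% of 32851 promoters, or 1.77% of 27025 genes, in 4.54% of the 2004 genes with a promoter that were read in at least 50% of cells, and in 3 of the 23 listed genes, Btg2, Dusp1 and Plk2. The shorter motif was in 7.29% of all genes, in 15.2% of those 2004 genes, and in 12 of the 23. Egr4 was among these 12, whereas the promoters of Junb and Gadd45b held neither form. Every promoter printed below holds a motif, so they do not show how common it is. These matches are letters in a window and no evidence of binding, and the list was chosen with its high level known. The promoters of Btg2 (chr1:134079156-134079405, minus strand), Dusp1 (chr17:26508473-26508722, minus strand), Plk2 (chr13:110394794-110395043, plus strand) and Fos (chr12:85473640-85473889, plus strand) follow, 5′ to 3′ on the strand of the gene, with TGACGTCA in capitals in the first 3 and TGACGT in Fos.
Btg2: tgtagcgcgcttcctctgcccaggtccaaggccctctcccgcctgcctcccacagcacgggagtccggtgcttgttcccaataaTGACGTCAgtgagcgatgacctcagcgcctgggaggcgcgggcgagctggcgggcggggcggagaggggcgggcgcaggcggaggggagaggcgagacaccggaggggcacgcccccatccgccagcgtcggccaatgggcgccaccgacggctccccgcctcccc
Dusp1: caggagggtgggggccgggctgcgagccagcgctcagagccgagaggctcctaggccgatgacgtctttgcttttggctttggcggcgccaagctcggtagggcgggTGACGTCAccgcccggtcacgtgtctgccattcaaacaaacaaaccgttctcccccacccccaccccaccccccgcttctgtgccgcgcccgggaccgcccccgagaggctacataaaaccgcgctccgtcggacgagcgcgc
Plk2: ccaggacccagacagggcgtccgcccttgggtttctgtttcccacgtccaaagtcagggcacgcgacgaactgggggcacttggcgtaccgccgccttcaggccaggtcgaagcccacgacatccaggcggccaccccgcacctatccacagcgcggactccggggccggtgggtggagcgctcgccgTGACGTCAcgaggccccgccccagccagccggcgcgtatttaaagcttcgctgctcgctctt
Fos: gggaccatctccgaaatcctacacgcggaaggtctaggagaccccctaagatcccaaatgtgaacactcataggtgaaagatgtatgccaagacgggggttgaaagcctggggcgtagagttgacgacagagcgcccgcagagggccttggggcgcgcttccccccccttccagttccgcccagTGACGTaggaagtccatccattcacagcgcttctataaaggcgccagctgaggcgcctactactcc

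By level per kilobase, the 20 highest named protein-coding genes of the summed cells ran from Calm2 at 3202 RPKM to Cox8a, a subunit of the respiratory chain, at 619 RPKM. They include genes of calcium signalling (Calm2), activity-regulated genes (Fos, Egr4, Junb and Plk2), growth arrest and DNA repair (Gadd45g), protein turnover and folding (the ubiquitin gene Ubb and the chaperone Hsp90ab1), energy (Aldoa, a glycolytic enzyme, and Cox8a), iron storage (Fth1), the actin-binding Tmsb4x, translation (Eef1a1), the histone gene H3f3b and neuronal genes of other kinds (Snurf, Bex2, Ncdn, Aplp1 and Tmem59l). Gadd45g was on no list and stood at rank 3, with a median of 1676 CPM, a highest value of 7517 CPM and reads in 52 cells. Tmsb4x, at 1967 RPKM, was read in every cell and ran from 788 to 7303 CPM. Snurf shares its transcript with Snrpn, so its level is uncertain. Among chaperones, Hspa8 was read in all cells with a median of 1769.7 CPM and Hspa5, of the endoplasmic reticulum, in 54 with 974 CPM, while the heat-inducible Hspa1a and Hspa1b were read in 11 and 8, a split that is uncertain because these copies are near-identical. Dnajb1, a heat shock co-chaperone, was read in 35 cells with a median of 66.1 CPM and a highest value of 4647 CPM. Atp1b1, the beta subunit of the sodium pump, was read in all 59 cells with a median of 1322.5 CPM. At the other end, the 1087 olfactory receptor genes in the table, which these cells should not use, had no read for 870 of them, against 5505 of all 22800 genes. None was measured. The set was not free of reads: its summed level had a median of 57.1 CPM, an upper quartile of 193 CPM and a highest value of 1282.5 CPM, with 2 cells at 1000 CPM or more.

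Profiles of single cells were only weakly correlated with each other. Over the 7356 measured genes, the Spearman rho of the 1711 pairs of cells had a median of 0.208 and a range of 0.117 to 0.379. It was 0.211 within the first run of titles, 0.207 within the second and 0.204 between them. The coefficient of variation (CV), the SD over cells divided by the mean, had a median of 2.26 over the measured genes. It fell with the level, from a median of 2.59 for 4090 genes with a mean of 20 to 100 CPM to 1.65 for 2435 genes of 100 to 500 CPM and 0.870 for 229 genes above that. Only 35 genes had a read in every cell and 22 reached 10 CPM in every cell. What part missed reads have in these correlations and CVs was not tested, so they are no measure of how far the cells themselves differ. For comparison at like level, the CV of a gene was divided by the median CV of the 100 measured genes nearest to it in mean. The ratio was ranked among 2268 named protein-coding genes with a mean of at least 50 CPM and a read in at least 50% of cells. The nearest genes did not have to meet that 50% rule, and those of 20 to 100 CPM had a read in a median of 33.9% of cells. The rule by itself can therefore place a ranked gene below 1.

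Of the 10 genes of lowest ratio, 8 are named here, among them genes of mitochondria and glycolysis. Sept5, a septin of vesicle membranes, had a CV of 0.925 against 2.40 for genes of like level, a ratio of 0.386, and ran from 0 through a median of 58.03 CPM to 362 CPM. The ratio was 0.409 for the respiratory chain gene Ndufs5, 0.423 and 0.435 for the mitochondrial import genes Tomm6 and Timm23, and 0.434 for the glycolytic enzyme Pgam1. Snurf, Tlcd1 and Mt3 followed, at 0.445, 0.445 and 0.452. Each of these 8 genes also lay below 1 in each run of titles alone and after thinning. The genes were picked from these same cells and reads, so this is no independent check.

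The highest ratios were mixed in kind. Cst3, the protease inhibitor cystatin C, had a CV of 2.62, a ratio of 2.28, a median of 18.4 CPM and a highest value of 5677 CPM. Sgk1, a kinase induced by corticosteroids, followed with a ratio of 2.23, a median of 148.5 CPM and a highest value of 9727 CPM, and Dusp1, a phosphatase of MAP kinases, with 2.03, a median of 196 CPM and a highest value of 6622 CPM. Dnajb1 had a ratio of 1.78, Tspan13 of 1.70, Arc of 1.63 and Usp22 of 1.62. For Cpe, a peptide-processing enzyme, Mbp and Ttyh1, the highest value came from replicate 57, and without that library the ratio went from 2.19 to 0.961 for Cpe, from 1.70 to 1.21 for Mbp and from 1.64 to 0.941 for Ttyh1. In the 16 cells of the second run of titles, Dusp1 and Arc were below 1, at 0.752 and 0.896, and Sgk1 and Tspan13 fell to 1.04 each.

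**Figure D5:**
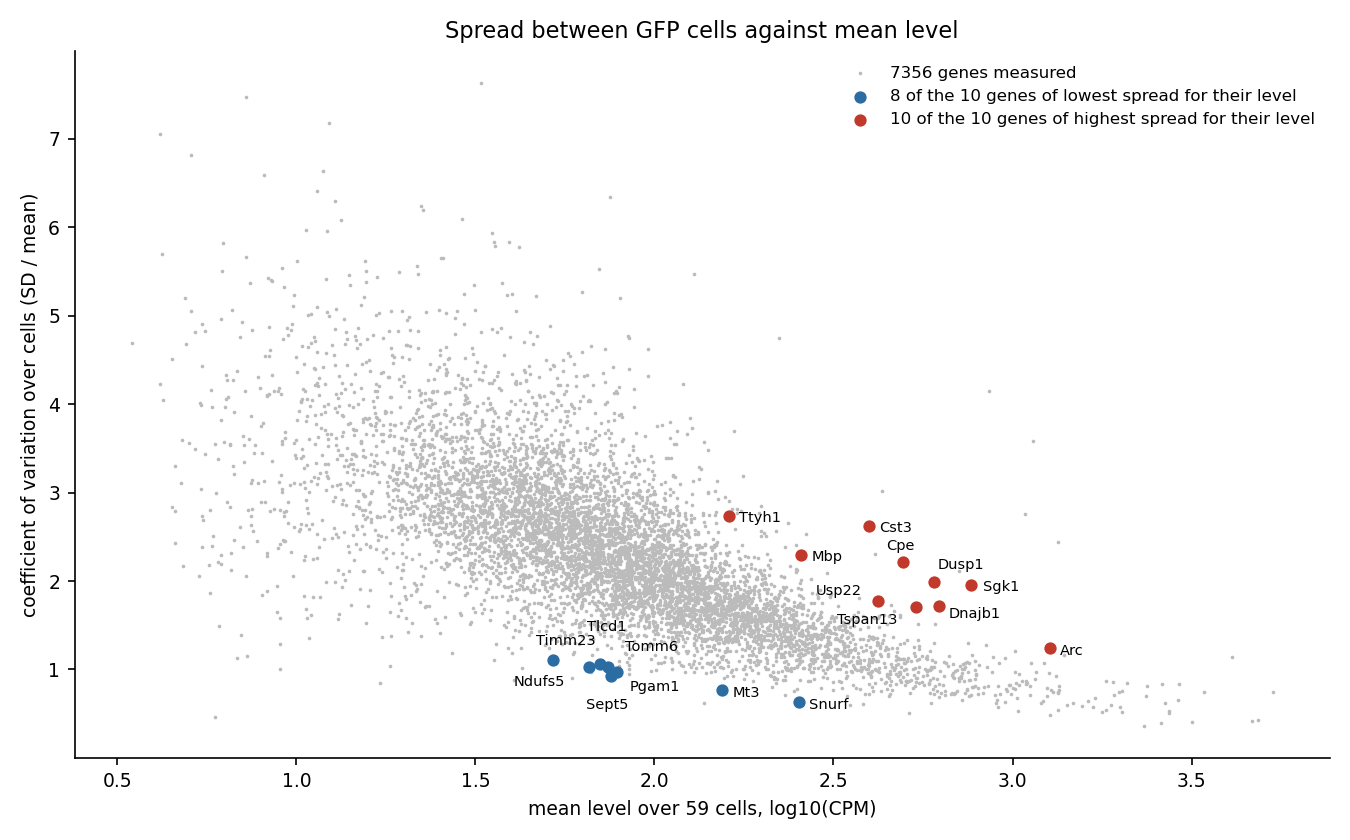
Coefficient of variation over 59 GFP cells (vertical axis) against mean level as log10 of CPM (horizontal axis) for 7356 measured genes. Grey points are genes, blue points 8 of the 10 genes of lowest and red points the 10 of highest spread for their level. The cloud falls with the level, the blue genes lie along its lower edge and the red genes above it, with Arc at a mean of 1271 CPM.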

How the data were processed

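Per the labels' protocols, the cytosol of single granule cells was drawn by patch pipette and total RNA was made into libraries with Nextera XT. The submitters' processing notes name Trimmomatic, STAR, featureCounts and the build GRCm38, without versions. Annotation and strand setting: not given in the sources used here. What the authors deposited was a table of whole-number read counts per gene and a scaled table of normalized signal. In all 59 cells the deposited scaled signal equals the counts times 1 factor per cell, between 0.674 and 13.9, within a relative tolerance of 1e-06. The counts were used.

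From the counts, CPM were computed per cell and over the summed reads, with exact Poisson intervals for levels and Clopper-Pearson intervals for shares, both at 95%. Cells were thinned once to 100000 reads, with a fixed seed. Levels of different genes were compared as RPKM, using all exon bases of GENCODE M21 on GRCm38, which gave a length for 22588 of 22800 genes. Where strand is not known, reads of overlapping genes cannot be told apart. No label names an animal, so no p-value is given. Correlations are Spearman rho over cells, as descriptions. No 2 cells were identical.

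The members and the 34 gene lists were chosen with earlier results of these data known. Genes named are members of these lists, chiefly those high per kilobase, widespread or without a read, with genes from the 20 highest by RPKM and the 10 lowest and 10 highest in spread. Some genes that this rule names are not reported here. Some list members were named for their known role after their values were seen. The alternatives were thinning, other rules for a detected or measured gene, the scaled table, each run of titles, cells that failed quality control, other gene lengths and leaving out libraries that stood apart. Scripts ran in Python 3.11.15 with numpy 2.4.6, pandas 2.3.3, scipy 1.17.1 and matplotlib 3.10.9, and were tested on simulated data.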

Additional observations from a re-analysis of the deposited data

How the results depend on the processing

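Of 39 values under an alternative, 34 were kept and 5 moved, counted over summary values. A value was kept if it stayed within 1.5 times the reported value. The correlation between cells was kept if it stayed within 1 SD of the values over pairs of cells. The 2688 genes with a read in at least 50% of cells became 1671 in thinned cells and 1543 where a cell had to reach 10 CPM, a rule chosen after seeing the data. The 7356 measured genes became 17295 with no filter and 2576 with a read in at least 50% of cells and 20 CPM. With the median transcript length in place of all exon bases, also chosen after seeing the data, 19 of 34 lists kept the same highest member, so the order of members per kilobase depends on the length used. Counts hide changes in single genes: of 605 listed genes of at least 5 CPM, the level stayed within 1.5 times in 560 genes in the first run of titles alone but in only 319 in the second, where 163 were lower and the others higher, and 23 of 34 lists kept their highest member there. The share of cells with a read fell by over 10 percentage points for 230 of 813 genes after thinning. Of the ratios of spread, those of Cpe and Ttyh1 fell below 1 without GFP replicate 57. Depth limits what can be said of low genes, since 9.20% of values above 0 were a single read. No paired analysis was possible because only 1 group was described and its replicate numbers follow accession order.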

Other observations

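Haemoglobin transcripts differed in median between the 2 runs of titles, with values that overlapped. Hbb-bs, a beta globin gene, was read in 40 of 43 cells of the first run and in 1 of 16 cells of the second. The alpha globin genes Hba-a1 and Hba-a2, near-identical copies whose split is uncertain, were each read in 40 and 7 cells, and Hbb-bt in 34 and 0. The 5 genes of the blood list together had a median of 86.1 CPM in the first run and 0.491 CPM in the second, where GFP replicates 56 and 57 held 166 and 439 CPM.

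Transcripts of the Y-linked genes Eif2s3y, Ddx3y, Uty and Kdm5d reached a sum of 5 CPM in 1 of 43 cells of the first run and in 11 of 16 cells of the second. The labels give neither sex nor animal, so animal, preparation and run cannot be told apart, and no difference between the runs was tested.

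Ribosomal protein genes were widespread: 82 of 85 were measured, and their summed level ran from 6268 to 29820.0 CPM with a median of 10801 CPM. A further group was the ion pump and energy genes, with 29 of 31 measured and a median summed level of 19621 CPM.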
